A study of Homo sapiens with 12 samples.

Results

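Parental PC3 and parental DU145, a pair of human prostate cancer cell lines cultured before any drug selection, were compared with each other across all genes that passed a filter on low counts. PC3 was derived from a bone metastasis and DU145 from a brain metastasis, and both grow without androgen. The comparison used 6 of the 12 RNA sequencing libraries of the study, 3 of parental PC3 and 3 of parental DU145, chosen by their labels. Both groups are labelled as controls and were grown in the same serum-containing medium. The other 6 libraries came from sublines of the same lines selected for resistance to docetaxel, a taxane that stabilises microtubules. The selection started at 10 for DU145 and 0.5 for PC3 and ended at a half-maximal inhibitory concentration of 1800 and 15, all in the unit the submitters write as nm/ml. These sublines enter the estimate of spread, a side-by-side view at the end and a test of whether the line difference changed. Each line is a single established culture, so every difference is one between these particular lines and not between kinds of tumour. The labels do not say whether the 3 libraries of a group came from separate cultures. The p-values therefore rest on how far these particular libraries differ, and that spread may be only technical.

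Prostate epithelium is made of luminal cells, which depend on androgen and secrete prostate proteins, and basal cells, which rest on the basement membrane. Carcinoma cells hold each other through cadherins and desmosomes and hold the matrix through integrins, and they lose or keep these contacts to different degrees. Cell lines also carry fixed losses and mutations of tumour suppressors, some of which remove a gene entirely.

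The defining markers of an epithelial and prostate origin were checked first. Levels are given in CPM, the count divided by the scaled library total and multiplied by 1000000, for libraries 1, 2 and 3 of a group in that order. The simple-epithelial keratin KRT8 had 245, 240.3 and 242 CPM in PC3 and 409.8, 388 and 379 CPM in DU145. Its partner KRT18 had 215, 220.5 and 198 CPM in PC3 and 289.9, 298 and 285 CPM in DU145. The adhesion molecule EPCAM was present at 9.9 against 18.4 CPM on average and CDH1, the epithelial cadherin, at 9.94 against 3.81 CPM, so all 4 epithelial markers were detected in both lines. Of the prostate lineage genes, the homeobox gene HOXB13 was high in PC3 and close to 0 in DU145.

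The 6 parental libraries held between 62513103 and 68170880 counts. Mitochondrial transcripts made up 3.98% to 4.30% of the counts in parental DU145 and 5.68% to 6.04% in parental PC3. Principal components were taken over all 12 libraries, resistant sublines included, and 12202 genes. On the first, which carried 76.16% of the variance among the 12 libraries, the lines separated completely. Of 24128 genes tested, 60.3% were called different at an adjusted p under 0.05 by edgeR's quasi-likelihood test with Benjamini-Hochberg adjustment. Calls higher in PC3 made up 30.9% of the genes tested and calls lower in PC3 29.5%. The median log2 difference over all genes was 0.0, and the median of its absolute size was 0.97. At least 16-fold differences were called for 1606 genes higher and 1307 genes lower in PC3. Among 15333 protein-coding genes 74.1% were called, among 5344 long noncoding RNA genes 39.0% and among 1503 processed pseudogenes 24.3%. Every count of called genes in a list is to be read against the share of 60.3% over all genes. For lists of protein-coding genes the closer background is their share of 74.1%. Log2 differences below are PC3 minus DU145, and adjusted p-values come from the same edgeR test. The ± value is a standard error worked back from that test, as the absolute difference divided by the square root of its F statistic. It is only approximate for genes near 0 in a line. The fold of a gene near 0 in a line rests on few counts. Leaving out 1 of the 6 libraries moved the fold by over 1.5 times in 41 of the 216 genes named here that had counts in both lines, all 41 in the same direction as before.

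**Figure D1:**
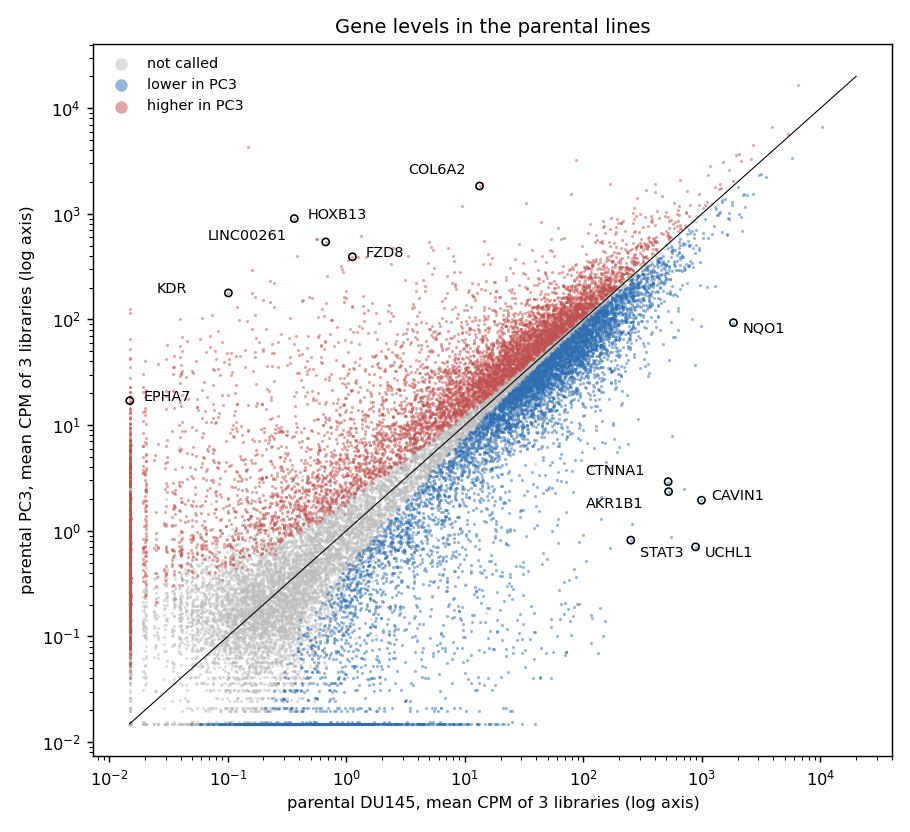
Mean level of each tested gene in parental DU145 (horizontal, CPM, log axis) and parental PC3 (vertical, CPM, log axis), 3 libraries each. Genes with no count in a line are drawn at the floor of 3 counts, Y-linked genes and XIST are left out, and the diagonal marks equal levels. KDR, HOXB13 and LINC00261 lie far above the diagonal, and UCHL1, CAVIN1 and STAT3 far below it.

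Genes recorded as lost or altered in either line formed the first list. Of 10 such genes, 5 were higher and 4 lower in PC3, and ATG5 was not called. The CDK4 and CDK6 inhibitor gene CDKN2A (ENSG00000147889, chromosome 9, 21967753 to 21994873, GRCh38) had 74.6, 80.2 and 75.2 CPM in PC3 and 229, 244 and 238 CPM in DU145. The groups lay apart, and CDKN2A was 3.09-fold lower in PC3 (-1.63 ± 0.07, adjusted p = 4.92e-12). CTNNA1, the alpha-catenin that ties cadherins to actin, was the lowest of the list in PC3 at a log2 difference of -7.48 ± 0.09.

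Several other genes of that list differed by less than 2-fold. The kinase JAK1, which transmits interferon signals and overlaps RAVER2, was 1.65-fold higher, STK11 1.54-fold, the apoptosis effector BAX 1.43-fold and the retinoblastoma gene RB1 1.35-fold. STK11 overlaps CBARP and RB1 overlaps LPAR6. All 4 were transcribed in both lines, and their groups did not overlap. The autophagy gene ATG5 showed 29.9 against 26 CPM, with overlapping groups and a log2 difference of 0.20 ± 0.09, adjusted p = 0.0683; without the first DU145 library it was called at 0.29. Transcript levels do not show whether the encoded protein is altered.

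Near 0 in parental PC3 was also a row of neighbouring genes on chromosome 17 that includes STAT3. Neighbouring genes of at least 1 CPM in either line were scanned for 3 or more in a row with a log2 difference of at least 5 in the same direction. This scan and the genes named from it were chosen after the values were seen. It gave 51 rows, 32 higher and 19 lower in PC3. The row with the most members held 10 genes, DHX58 to ATP6V0A1 and an uncharacterised transcript, at chr17:42101404-42522582 (GRCh38).

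STAT3, a transcription factor activated by cytokines, had 0.931, 0.967 and 0.546 CPM in PC3 and 250.4, 252 and 251 CPM in DU145 (-8.26 ± 0.11, adjusted p = 1.24e-17). Its neighbours STAT5A and STAT5B, which act downstream of growth hormone and prolactin, averaged 0.0701 against 8.16 CPM and 0.103 against 78.3 CPM. CAVIN1, a coat protein of caveolae, had 2.81, 1.9 and 1.12 CPM in PC3 and 994, 1019 and 960.2 CPM in DU145. Every one of these genes was present in DU145 and nearly silent in PC3, with no overlap. The acetyltransferase KAT2A was 1050-fold lower, the endosomal GTPase RAB5C 724-fold, the proton pump subunit ATP6V0A1 791-fold and GHDC 388-fold. The RNA sensor DHX58 had no count in PC3 and 4.07, 4.71 and 6.11 CPM in DU145, at least 324-fold lower.

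The genes on either side of the row were transcribed in both lines. NKIRAS2, an inhibitor of NF-kB signalling on one flank, was 1.2-fold lower in PC3 (-0.26 ± 0.08, adjusted p = 0.0117), and it lost its call without the first PC3 library (-0.23). The chaperone gene DNAJC7 beside it was 1.67-fold lower, and the 2 genes overlap each other. On the other flank NAGLU, a lysosomal enzyme, was 2.03-fold lower (16.5 against 33.5 CPM) and COASY, an enzyme of coenzyme A synthesis, 1.45-fold lower. Within the row the smallest difference among the named genes was the 112-fold of STAT5A, far above the differences of the flanks.

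Shorter rows showed the same shape. On chromosome 15, PARP6 had 0.0887, 0.0624 and 0.0624 CPM in PC3 and 75.5, 66.5 and 71 CPM in DU145, and HEXA, a lysosomal hexosaminidase subunit, 0.295, 0.0624 and 0.0624 CPM and 75.7, 81.5 and 73 CPM. Beyond them the glycolytic gene PKM (2235 against 3490 CPM) and the ubiquitin ligase ARIH1 (62.5 against 102 CPM) differed by 1.56-fold and 1.64-fold. Also on chromosome 17, SLFN11, a helicase-like protein linked to sensitivity to DNA-damaging drugs, averaged 0.157 against 82.1 CPM, SLFN12 0.0701 against 30.1 CPM and SLFN13 0.161 against 68.5 CPM. Their family member SLFN5 was 1.38-fold higher in PC3.

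**Figure D2:**
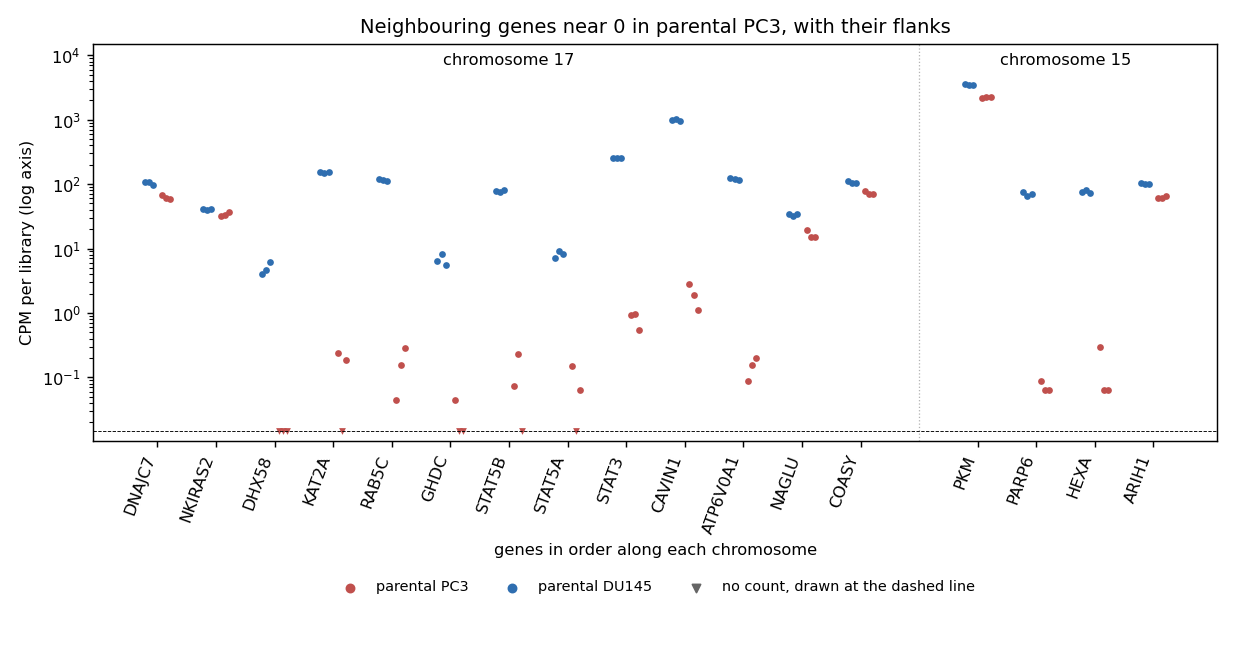
CPM (log axis) in each of the 3 parental PC3 and 3 parental DU145 libraries for genes in their order along chromosomes 17 and 15; triangles on the dashed line mark libraries with no count. The genes from DHX58 to ATP6V0A1, and PARP6 with HEXA, drop to near 0 in PC3 between flanks that both lines express.

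Cell contact genes split by family. Of 13 adherens junction genes 8 were higher and 5 lower in PC3, and all 13 were called. The mesenchymal cadherin CDH2 had 75.3, 85.6 and 81.8 CPM in PC3 and 0.188, 0.135 and 0.307 CPM in DU145, and the osteoblast cadherin CDH11 318, 326 and 323 CPM and 0.679, 0.360 and 1.66 CPM. Both were present in PC3 and nearly absent from DU145, 383-fold and 360-fold apart. The placental cadherin CDH3 was 12.5-fold lower in PC3 (1.63 against 20.4 CPM), as was the adaptor AFDN (3.93-fold). CDH1 had 7.21, 10.6 and 12 CPM in PC3 and 3.41, 3.42 and 4.6 CPM in DU145, 2.61-fold higher in PC3 (1.38 ± 0.29, adjusted p = 0.00159). The actin linker VCL, which binds alpha-catenin, was 2.29-fold higher in PC3 and JUP, a catenin of both junction types, 8.16-fold.

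Of 11 desmosome genes 6 were higher and 3 lower, with a median log2 difference of 2.86, and of 1.21 with limma on log2(FPKM + 1). The desmosomal cadherins DSC3 and DSC2 averaged 148 against 0.427 CPM and 158 against 6.83 CPM. The plaque protein PKP1 had 447, 466 and 452 CPM in PC3 and 4.13, 6.65 and 5.37 CPM in DU145, 84.6-fold higher. DSP, which links desmosomes to keratin filaments, was 12.9-fold higher but low in both (10.8 against 0.835 CPM), and DSG2 was 1.9-fold lower in PC3.

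Of 19 tight junction genes 5 were higher and 10 lower in PC3 (median -1.05, and -0.64 with limma on log2(FPKM + 1)). The claudins CLDN4, CLDN11 and CLDN3 were 70.9-fold, 17.6-fold and 7.65-fold higher, CLDN4 at 340.1, 339.6 and 353 CPM in PC3 and 4.09, 4.26 and 6.23 CPM in DU145. The polarity gene CRB3, which overlaps DENND1C, was 110-fold lower at 0.739, 0.624 and 2.5 CPM against 143, 138 and 142 CPM.

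Among 13 keratins 6 were higher and 5 lower. KRT20 averaged 66 against 0.0585 CPM, KRT15 73.5 against 2.7 CPM and KRT81 281 against 8.13 CPM, all higher in PC3, while KRT7 and KRT80 averaged 37.1 against 867 CPM and 10.1 against 177 CPM and were lower. KRT81 has near-identical relatives and is uncertain. KRT8 and KRT18 overlap in the annotation, and both were called lower in PC3, by 1.62-fold and 1.38-fold.

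Of 16 epithelial transcription factors and surface markers 6 were higher and 5 lower. The factor EHF had 59.8, 55 and 72.5 CPM in PC3 and 0.809, 0.601 and 0.569 CPM in DU145, 94.1-fold higher. The protease inhibitor SPINT1 and the sorting protein MAL2 were 48.2-fold and 37.8-fold higher. The lipoprotein receptor LSR of tricellular junctions was 27.7-fold lower and EPCAM 1.86-fold.

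The 25 mesenchymal genes showed no common direction, with 11 higher, 8 lower and a median of 0.07. The inducer TWIST1 had 11, 10.4 and 10.2 CPM in PC3 and 0.0433, 0 and 0 CPM in DU145. SNAI2 was 20.3-fold higher in PC3, the matrix protein SPARC 38.8-fold and fibronectin, FN1, 4.99-fold (1419 against 285 CPM). In the other direction ZEB2 was 11.2-fold lower and the receptor kinase AXL 11.2-fold, at 91, 85.3 and 84.8 CPM in PC3 and 987, 974 and 961 CPM in DU145. Vimentin, VIM, was 1.35-fold lower in PC3 and ZEB1 was not called, at 46.4, 42.8 and 44.1 CPM in PC3 and 45.2, 49.4 and 44 CPM in DU145 (-0.06 ± 0.09, adjusted p = 0.629). Both lines therefore carried ZEB1 and vimentin transcripts beside the epithelial keratins.

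Genes of the prostate lineage were more often higher in PC3, 11 of 17 against 2 lower, with a median of 2.24, and of 1.41 with limma on log2(FPKM + 1). HOXB13, a homeobox gene of the prostate and hindgut (chromosome 17, 48724763 to 48728750), had 889.8, 901 and 912 CPM in PC3 and 0.318, 0.405 and 0.369 CPM in DU145. The groups were 2460-fold apart (11.27 ± 0.44, adjusted p = 1.98e-08). The serine protease TMPRSS2 averaged 36.8 against 0.0400 CPM, and FOLH1, which encodes prostate-specific membrane antigen, had 1.85, 1.4 and 0.655 CPM in PC3 and no count in DU145, at least 87.2-fold higher. The ETS factor SPDEF was 27.4-fold and the pioneer factor FOXA1 3.37-fold higher in PC3. FKBP5, a chaperone of steroid hormone signalling, was 5.98-fold lower (23.6 against 141 CPM).

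HOX genes, which set position along the body axis, divided within clusters. Of 34 tested, 12 were higher and 15 lower. Next to HOXB13 the small gene PRAC1, a prostate and colon transcript, had 38.7, 33.5 and 33.7 CPM in PC3 and no count in DU145, at least 2360-fold higher. In the same cluster HOXB7 and HOXB8 were near 0 in PC3 and had 25.7, 26.1 and 23.6 CPM and 3.57, 4.24 and 4.08 CPM in DU145. HOXA13 averaged 116 against 2.37 CPM with its antisense neighbour HOTTIP at 15.9 against 0.0756 CPM, and HOXD13 had 0.709, 1.31 and 1.36 CPM in PC3 and no count in DU145. HOXC10 was 41.4-fold lower in PC3, and HOXC11 had no count there and 1.62, 1.55 and 2.68 CPM in DU145. The noncoding RNA HOTAIR, which overlaps HOXC11, was 38.7-fold lower. The most 5-prime genes of the HOXA, HOXB and HOXD clusters were thus higher in PC3, and the named HOXC genes and inner HOXB genes lower. Overlap within the clusters leaves the exact split between HOXB7, HOXB8 and HOXB9, and between HOXA13 and HOTTIP, uncertain.

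Of 11 neuroendocrine and neuronal markers 5 were higher and 3 lower. FOXA2, an endoderm factor, averaged 50.2 against 0.0410 CPM and the neuronal enolase ENO2 302 against 82.1 CPM. The deubiquitinase UCHL1 had 1.29, 0.561 and 0.265 CPM in PC3 and 884, 892 and 877 CPM in DU145, 1240-fold lower. The synaptic protein SNAP25 was 87.9-fold lower, and synaptophysin, SYP, was not called (2.32 against 1.78 CPM). The markers therefore pointed in both directions, and chromogranin A, CHGA, did not pass the filter.

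Collagens had the highest median of the contact and matrix lists. Of 24 collagen chains 17 were higher and 4 lower in PC3, with a median log2 difference of 3.76, and of 2.56 with limma on log2(FPKM + 1). The 3 chains of collagen VI, which forms beaded filaments around cells, were all high in PC3. COL6A1 had 3158, 3103 and 3359 CPM in PC3 and 81.7, 82.8 and 93.1 CPM in DU145. COL6A2 had 1766, 1829 and 1907 CPM in PC3 and 12.1, 12.2 and 15.7 CPM in DU145. COL6A3 averaged 186 against 4.6 CPM, and the 3 chains were 37.4-fold, 138-fold and 40.5-fold higher. The transmembrane collagen COL13A1 was 187-fold higher. COL4A3 and COL4A4, basement membrane chains of a shared promoter region, were lower in PC3 at 0.132 against 4.47 CPM and 0.268 against 12.4 CPM. COL4A3 overlaps MFF-DT.

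All 11 laminins were called, 7 higher and 4 lower. LAMB1 had 286, 287 and 276 CPM in PC3 and 9.69, 7.91 and 9.49 CPM in DU145 (31.3-fold higher), LAMA4 averaged 17.4 against 0.524 CPM and LAMA5 952 against 276 CPM. LAMA5 overlaps ADRM1. LAMA1 went the other way at 0.111 against 38.6 CPM, 338-fold lower. Of 21 integrins 12 were higher and 5 lower. The TGF-beta activating chain ITGB8 was 102-fold higher, the collagen receptor chain ITGA1 12.9-fold and the laminin receptor chains ITGA6 and ITGB4 3.53-fold and 5.24-fold. The shared beta chain ITGB1 was 1.32-fold higher at 1896, 1879 and 1910 CPM against 1465, 1413 and 1416 CPM. ITGA1 overlaps PELO and ITGB4 overlaps GALK1.

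Of 28 genes of the urokinase system and the metalloproteases 16 were higher and 7 lower, with a median of 1.77. It was 2.73 without the second DU145 library and 1.17 with limma on log2(FPKM + 1). The membrane protease MMP16 had 60.4, 59.6 and 61.7 CPM in PC3 and 0.361, 0 and 0.184 CPM in DU145. The collagenase MMP1 was 61.2-fold, tissue plasminogen activator PLAT 16.6-fold and urokinase PLAU 2.35-fold higher. The urokinase receptor PLAUR was 1.5-fold lower in PC3 (39.1 against 58.7 CPM), and ADAMTS6 14.9-fold. Ligand and receptor of the urokinase system thus differed in opposite directions.

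Bone-acting secreted factors, relevant to lines of which one came from bone, were 9 higher and 8 lower of 23. The latent TGF-beta binding protein LTBP1 had 297, 296 and 317 CPM in PC3 and 0.693, 1.02 and 1.046 CPM in DU145. The activin chain INHBA averaged 72.5 against 0.729 CPM and its antagonist follistatin, FST, 105 against 0.575 CPM. Parathyroid hormone-related protein, PTHLH, which stimulates bone resorption, averaged 56.8 against 0.609 CPM and the Wnt inhibitor DKK1 271 against 32 CPM. IL6 and CSF1, cytokines of osteoclast formation, were 32.4-fold and 25.7-fold lower in PC3, CSF1 at 9.87, 12.4 and 11.7 CPM against 293, 287 and 292 CPM. IL6 overlaps IL6-AS1.

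Growth factor systems differed in opposite ways. Of 15 genes of the EGF family and its receptors 2 were higher and 9 lower in PC3, with a median of -1.20. The ligand EREG had 1.82, 0.577 and 1.04 CPM in PC3 and 262, 256 and 256 CPM in DU145, 223-fold lower. NRG1 was 220-fold, TGFA 24.9-fold and AREG 8.1-fold lower. The receptor EGFR had 88.9, 89.6 and 84.5 CPM in PC3 and 198, 202 and 202 CPM in DU145, 2.29-fold lower. NRG2 was 7.56-fold higher. The other gene called higher was ERRFI1, a feedback inhibitor of the receptor, at 246.6 against 215.6 CPM, and 4 members were not called. EGFR and 4 of its ligands, EREG, TGFA, AREG and EGF (4.37 against 15.18 CPM), were thus lower in PC3.

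Of 19 ephrin receptors and ephrins, which signal on contact between cells, 14 were higher and 2 lower, with a median of 3.14, and of 1.31 with limma on log2(FPKM + 1). EPHA7 had 15.8, 16 and 19.3 CPM in PC3 and no count in DU145, and EPHA5 12.4, 14.52 and 12.3 CPM and no count. EPHA5 overlaps an uncharacterised transcript. They were at least 1140-fold and 877-fold higher. EPHA2 averaged 395 against 44.9 CPM, EPHB6 20.6 against 0.0193 CPM and the ligand EFNB1 129.6 against 3.61 CPM, while the ligand EFNA5 was 4.7-fold lower in PC3.

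Among 28 other receptor kinases and ligands 15 were higher and 10 lower. KDR, the main receptor of VEGF, had 162, 159 and 213 CPM in PC3 and 0, 0.165 and 0.138 CPM in DU145, 1750-fold higher (10.78 ± 0.43, adjusted p = 5.61e-09). FLT1, another VEGF receptor, averaged 4.65 against 0.0751 CPM, a log2 difference of 5.92 that was 11.27 without the second DU145 library, and a call lost with the DESeq2 Wald test. FLT4, the receptor of lymphatic growth, had no count in PC3 and 12.7, 12.3 and 13 CPM in DU145, at least 829-fold lower. The ligand VEGFA was 3.82-fold lower in PC3 at 84.8, 78.8 and 91.7 CPM against 330.3, 326 and 319 CPM. The hepatocyte growth factor receptor MET differed by 1.64-fold.

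KDR is also an endothelial marker, so the markers of other cell types were counted. Of 8 endothelial markers tested 4 were higher and 2 lower in PC3. PECAM1 averaged 18.3 against 0.234 CPM, CDH5 was at 0.0208 CPM in PC3 and ERG at 0, VWF at 0 in PC3 and at 0, 0.375 and 0.384 CPM in DU145. The VWF call (adjusted p = 0.0295 by edgeR's quasi-likelihood test) was lost without any of 5 of the 6 libraries in turn. The summed level of the endothelial list was 191 to 247 CPM in PC3 and 13.4 to 13.8 CPM in DU145, and KDR made up most of it. Of the leukocyte list, 2 of 7 tested were higher and 1 lower, with PTPRC at 0.152 CPM in PC3 and at 0 in DU145 and CD3E at 0 in both, and its summed level was 48.6 to 63.3 CPM in PC3 and 17.6 to 20.8 CPM in DU145. Of the fibroblast and smooth muscle list 2 of 10 were higher and none lower, with DES at 0 in both, and sums of 132 to 143 CPM and 30.4 to 51.0 CPM. Of the osteoblast list 2 of 4 were higher and none lower, with IBSP at 0 in both, and sums of 8.28 to 10.7 CPM and 2.69 to 5.06 CPM. Of the neuron and glia list 1 of 6 was higher and 3 were lower, with sums of 162 to 166 CPM and 165 to 192 CPM. Outside the endothelial list, the markers named here are ones at or near 0 and do not stand for their lists. In the leukocyte, fibroblast and osteoblast lists the 2 members called higher in PC3 were at least 2-fold higher. The 1 leukocyte marker called lower was at least 2-fold lower, and none of these called members is among those named. The part of other cells in any result was not tested, and in bulk samples fewer cells of a type and less RNA per cell cannot be told apart.

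Wnt genes were balanced, with 14 higher and 13 lower of 39. The receptor FZD8 had 374, 409.5 and 392 CPM in PC3 and 0.982, 0.811 and 1.58 CPM in DU145, 349-fold higher. WNT5A, a ligand of noncanonical signalling, averaged 53.3 against 0.471 CPM and FZD4, which overlaps PRSS23, 172 against 11.5 CPM. FZD7 was 24.1-fold lower, and RNF43, a ligase that removes Wnt receptors, 60.5-fold lower at 0.0591, 0 and 0.390 CPM against 10.1, 8.6 and 8.66 CPM. RNF43 overlaps TSPOAP1-AS1. The receptor families were thus split between the lines, FZD8 and FZD4 against FZD7.

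Of 17 Notch genes 8 were higher and 3 lower. The ligand JAG1 had 126, 134 and 132 CPM in PC3 and 8.35, 9.16 and 7.23 CPM in DU145, 15.8-fold higher. The target genes HES1 and HEY1 were 388-fold and 60.3-fold higher, HEY1 at 134, 140.1 and 139 CPM against 2.25, 2.18 and 2.43 CPM. The log2 difference of HES1 was 8.60, and 13.73 without the first DU145 library. HEYL, a related target, was 86.2-fold and the ligand JAG2 2.46-fold lower. One ligand and 2 target genes were therefore high in PC3, and another ligand and target in DU145.

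Of 28 genes of the PI3K list 17 were higher and 10 lower in PC3. The Rac activator PREX1 was 22.8-fold higher, the kinase SGK1 14.2-fold and the insulin receptor substrate IRS1 9.15-fold. IRS1 had 159, 166 and 166 CPM in PC3 and 19.6, 17.1 and 17 CPM in DU145. Its relative IRS2 had 8.04, 7.66 and 8.2 CPM in PC3 and 72.5, 75 and 72.7 CPM in DU145, 9.21-fold lower, so each line was high for a different substrate. The catalytic subunit PIK3CB was 2.18-fold lower.

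Cell cycle lists were lower in PC3. Of 28 DNA replication genes 4 were higher and 23 lower with a median of -0.83. The groups did not overlap in any of the 28, against 67.7% of all genes tested with groups that did not overlap. That share includes noncoding genes and pseudogenes, and the share among protein-coding genes alone is not given here. Of 26 mitosis genes 2 were higher and 22 lower, with a median of -1.06, and 15 were lower by at least 2-fold. The replication factor MCM10 had 14.1, 14.4 and 12.8 CPM in PC3 and 71.5, 72 and 62.2 CPM in DU145, 4.98-fold lower. ORC6, which marks origins, was 4.0-fold and CDC6, which loads the helicase there, 3.35-fold lower. The polymerase subunit POLA1 and the helicase subunit GINS1 were 1.63-fold and 1.37-fold higher. POLA1 overlaps a pseudogene.

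The mitotic activator CDC20 had 49.6, 57.8 and 44.1 CPM in PC3 and 198, 208 and 185 CPM in DU145, 3.9-fold lower (-1.96 ± 0.07, adjusted p = 3.13e-12). The topoisomerase TOP2A had 210, 212 and 207 CPM in PC3 and 713, 692 and 635 CPM in DU145, 3.24-fold lower. The kinases AURKB and PLK1 were 2.95-fold and 2.37-fold lower. The kinase CDK1 and the ubiquitin-conjugating enzyme UBE2C were the 2 higher in PC3, by 1.35-fold and 1.37-fold. All 6 separated the lines without overlap, as did 22 of the 26 mitosis genes tested, against 67.7% of all genes tested. The share of cycling cells in each culture was not measured.

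Many mitotic genes are known to be controlled through the cell cycle homology element, read by the DREAM complex and B-MYB with FOXM1. Promoters, the 250 bases before the gene start in RefSeq (GRCh38.p14), were available for 9690 of 21571 tested genes with a unique symbol. The core letters TTTGAA of this element, searched on both strands, were in 8.77% of the 9690 promoters in 7 of 16 promoters of mitosis genes lower in PC3 and in 0 of 13 promoters of replication genes lower in PC3. The promoters of CDC20 and TOP2A are shown because each holds 2 matches, in capitals. CDC20 lies on the plus strand with its promoter at chr1:43358731-43358980 and TOP2A on the minus strand with its promoter at chr17:40417897-40418146. A match written TTCAAA is the same letters on the other strand. Each sequence is written 5′ to 3′ along the gene.
CDC20: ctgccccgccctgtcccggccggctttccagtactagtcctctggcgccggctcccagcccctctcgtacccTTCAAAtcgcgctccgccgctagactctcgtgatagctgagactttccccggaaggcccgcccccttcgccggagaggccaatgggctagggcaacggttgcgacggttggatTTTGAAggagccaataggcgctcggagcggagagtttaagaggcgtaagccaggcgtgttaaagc
TOP2A: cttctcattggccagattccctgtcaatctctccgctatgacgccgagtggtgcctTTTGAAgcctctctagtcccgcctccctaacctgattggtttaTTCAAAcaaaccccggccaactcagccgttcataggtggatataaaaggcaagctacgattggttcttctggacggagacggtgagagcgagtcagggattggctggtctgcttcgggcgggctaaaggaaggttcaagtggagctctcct
A match describes the letters in this window and not a bound site.

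Regulators of G1 were mixed, with 6 higher and 12 lower of 28. Cyclin D1, CCND1, had 571, 556 and 545 CPM in PC3 and 534, 529.9 and 524 CPM in DU145 and was not called (0.07 ± 0.03, adjusted p = 0.0753), although its groups did not overlap. The inhibitor CDKN1A, known as p21, had 34, 32.4 and 32.3 CPM in PC3 and 34.5, 29.9 and 35.7 CPM in DU145 (-0.02 ± 0.10, adjusted p = 0.879), and these groups overlapped. The CDK inhibitor CDKN1C was 82.1-fold higher in PC3 and the factor E2F2 4.6-fold lower.

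The type I interferon response list was higher in PC3 in 29 of 41 genes and lower in 10, with a median of 1.06, and of 0.59 with limma on log2(FPKM + 1). In 40 of the 41 the groups of 3 did not overlap, against 67.7% of all genes tested, noncoding genes and pseudogenes included. BST2, a tether of enveloped viruses, had 3.75, 2.77 and 5.24 CPM in PC3 and no count in DU145, at least 263-fold higher. The antiviral RSAD2, which overlaps CMPK2, had 3.12, 2.92 and 3.76 CPM in PC3 and no count in DU145. IFI44L had 10.1, 10.5 and 20.2 CPM in PC3 and 0, 0.0450 and 0 CPM in DU145, and the RNA sensor OAS1 23.4, 23.9 and 42 CPM and 0.0433, 0.0450 and 0.231 CPM. The third PC3 library stood above the other 2 for IFI44L and OAS1, and the summed list ran from 1700 to 2120 CPM in PC3 against 1380 to 1430 CPM in DU145. The kinase TYK2 was 2.29-fold higher in PC3.

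Other members were lower in PC3. The ligase HERC5 had 6.01, 5.39 and 7.55 CPM in PC3 and 61.1, 60.9 and 63.1 CPM in DU145, 9.76-fold lower. The feedback protease USP18 was 9.69-fold lower. IFIT1, which binds foreign RNA caps, had 25.4, 25.1 and 38.8 CPM in PC3 and 131, 128 and 138 CPM in DU145, 4.45-fold lower, again with the third PC3 library above the other 2. IFIT1 overlaps LIPA. Genes of one response were therefore divided between the lines in both directions.

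These genes are known to be switched on through interferon-stimulated response elements. The letters GAAA, NN and GAAA in a row, with N for any base and searched on both strands, were in 2.64% of the 9690 promoters, in 10 of 16 promoters of interferon genes higher in PC3 and in 4 of 6 of those lower in PC3. A pair of promoters from each direction is shown to compare them, with the matches in capitals. BST2 (minus strand, chr19:17405631-17405880) and IFI44L (plus strand, chr1:78620198-78620447) were higher in PC3. HERC5 (plus strand, chr4:88456869-88457118) and IFIT1 (plus strand, chr10:89392373-89392622) were lower. A match beginning TTTC is on the other strand.
BST2: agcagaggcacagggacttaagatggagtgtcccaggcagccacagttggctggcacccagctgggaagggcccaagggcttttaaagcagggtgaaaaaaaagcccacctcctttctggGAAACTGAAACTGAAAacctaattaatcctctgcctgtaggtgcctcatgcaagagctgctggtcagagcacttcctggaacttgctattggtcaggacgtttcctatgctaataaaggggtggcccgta
IFI44L: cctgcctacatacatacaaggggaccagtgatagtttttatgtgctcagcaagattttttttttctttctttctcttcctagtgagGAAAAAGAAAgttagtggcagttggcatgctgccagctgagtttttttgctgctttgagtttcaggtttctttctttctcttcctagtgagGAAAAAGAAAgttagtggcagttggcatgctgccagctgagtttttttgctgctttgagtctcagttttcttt
HERC5: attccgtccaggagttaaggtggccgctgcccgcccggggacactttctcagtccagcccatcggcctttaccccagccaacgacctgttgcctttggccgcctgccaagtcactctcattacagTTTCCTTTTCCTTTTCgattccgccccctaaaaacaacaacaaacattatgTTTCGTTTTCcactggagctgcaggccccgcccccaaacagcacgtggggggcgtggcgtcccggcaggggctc
IFIT1: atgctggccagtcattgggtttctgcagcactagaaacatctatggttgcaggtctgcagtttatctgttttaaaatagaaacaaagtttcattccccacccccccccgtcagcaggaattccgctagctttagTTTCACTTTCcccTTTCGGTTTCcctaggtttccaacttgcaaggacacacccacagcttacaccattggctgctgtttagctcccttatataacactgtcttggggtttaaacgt
The BST2 matches start 130 and 124 bases before the gene start and overlap each other. Those of IFI44L start 164 and 73 bases before it, those of HERC5 125, 119 and 74, of which the first 2 overlap, and those of IFIT1 116 and 103, so both directions carried the letters.

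Of 19 genes of MHC class I presentation 8 were higher and 7 lower. HLA-E had 192, 212 and 209 CPM in PC3 and 59, 60.8 and 62.5 CPM in DU145, 3.37-fold higher. The light chain B2M was not called, at 466, 475 and 446 CPM in PC3 and 495, 494 and 474 CPM in DU145 (-0.08 ± 0.05, adjusted p = 0.222), although it was with upper-quartile scaling (-0.13). The immunoproteasome subunit PSMB8, which overlaps PSMB9, was 5.22-fold higher in PC3 and the class I transactivator NLRC5 11-fold lower. HLA genes share sequence, so their exact levels are uncertain.

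Of 31 chemokine, cytokine and NF-kB genes 13 were higher and 10 lower. CXCL6 had 268, 288 and 284 CPM in PC3 and 0.997, 0.826 and 0.969 CPM in DU145. IL1B had 97, 110.5 and 104 CPM in PC3 and 0.433, 0.210 and 0.369 CPM in DU145. Both were expressed in PC3 and nearly absent from DU145, 300-fold and 305-fold apart. CXCL1 was 57.1-fold higher. Their family member CXCL8 was level between the lines at 166, 160 and 164 CPM and 153, 154 and 167 CPM (0.05 ± 0.05, adjusted p = 0.441), with overlapping groups. IL24, which overlaps FCMR, was 110-fold lower in PC3. Its log2 difference was -6.78, and -12.17 without the third PC3 library.

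Among metabolic and protective genes the NRF2 and glutathione list was mostly lower in PC3, 20 of 34 against 8 higher. Its median was -0.73, and -0.98 with limma on log2(FPKM + 1). NQO1, a quinone reductase and a standard NRF2 target, had 100.4, 92.1 and 87.1 CPM in PC3 and 1907, 1829 and 1802 CPM in DU145, 19.8-fold lower (-4.31 ± 0.06, adjusted p = 1.27e-17). The aldose reductase AKR1B1 had 3.07, 1.76 and 2.2 CPM in PC3 and 532, 538 and 500.5 CPM in DU145, 222-fold lower. GCLM, a subunit of the enzyme that begins glutathione synthesis, was 7.04-fold and the thioredoxin reductase TXNRD1 2.26-fold lower. The transferase GSTA4 was 4.57-fold higher. The summed level of the list was 2890 to 3040 CPM in PC3 and 7670 to 8040 CPM in DU145, of which NQO1 alone gave 93.2 and 1846 CPM.

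Of 20 aldehyde dehydrogenase and retinoid genes 7 were higher and 10 lower. The retinoic acid-forming ALDH1A3 had 409, 404 and 381 CPM in PC3 and 2.04, 3.86 and 4.09 CPM in DU145, 120-fold higher. The mitochondrial ALDH2 was 28.6-fold lower, CYP26B1, which degrades retinoic acid, 110-fold and CYP1B1 205-fold. ALDH1A3 was thus high in the line where CYP26B1 was low, while the list as a whole was mixed.

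Glycolysis and hypoxia genes showed no common direction, 12 higher and 11 lower of 30. GAPDH had 3328, 3411 and 3359 CPM in PC3 and 5645, 5756 and 5752 CPM in DU145, 1.7-fold lower, and ENO1 was 1.3-fold lower. Among the most abundant transcripts, the iron store subunit FTH1 was 1.84-fold higher, the scaffold AHNAK 1.34-fold lower and the elongation factor EEF1A1 1.07-fold higher (0.10 ± 0.03, adjusted p = 0.00672). The EEF1A1 call was lost with upper-quartile scaling (0.06). GAPDH and ENO1, often used as references, therefore differed between these lines. Of 28 cholesterol and fatty acid synthesis genes 6 were higher and 16 lower, with a median of -0.22.

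All 13 protein-coding genes of the mitochondrial genome were called higher in PC3, with a median of 0.73. The oxidase subunit MT-CO1 had 16430, 16210 and 16900 CPM in PC3 and 6558, 6354 and 6409 CPM in DU145, 2.56-fold higher, and MT-ND1 of complex I was 2.43-fold higher. MT-CYB was 1.1-fold higher, a call lost with upper-quartile scaling (0.09). The ribosomal MT-RNR2 was 1.55-fold lower at 6394, 6212 and 7286 CPM against 9410, 10190 and 11180 CPM. Its direction was thus opposite to that of the protein-coding mitochondrial genes.

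Genes that bear on taxanes were compared before any selection. Of 16 efflux and docetaxel metabolism genes 3 were higher and 6 lower. ABCB1, the efflux pump P-glycoprotein, had 0.192, 0.172 and 0 CPM in PC3 and 0.621, 0.285 and 1.22 CPM in DU145. Both lines were low, and its call (-2.51 ± 0.80, adjusted p = 0.021) was lost without the third DU145 library (-1.88), with the DESeq2 Wald test (-2.56), limma (-0.13), the replicate block (-2.49) and the 6 parental libraries alone (-2.53). ABCG2 was 34.6-fold lower in PC3 and ABCC2 63.7-fold, the latter at 0.192, 0.312 and 0.873 CPM against 31.1, 29 and 27.4 CPM. The log2 difference of ABCG2 was -5.11, and -9.41 without the first PC3 library. ABCC3 had 338, 332 and 386 CPM in PC3 and 109.7, 122 and 119 CPM in DU145, 3.01-fold higher.

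Of 26 tubulin and microtubule-associated genes 8 were higher and 12 lower. TUBB, the main beta-tubulin of most cells, was 1.21-fold higher at 1745, 1814 and 1711 CPM against 1483, 1476 and 1386 CPM. TUBB6 had 33.5, 29.8 and 29.7 CPM in PC3 and 351, 363 and 354 CPM in DU145, 11.5-fold lower, and TUBB4A was 6.7-fold higher. TUBB3, the class III isotype often studied in taxane resistance, averaged 96.8 against 109.8 CPM. Its groups overlapped, and its call (adjusted p = 0.0415 by edgeR) was lost without any of 5 of the 6 libraries in turn. The destabiliser STMN3 was 30.9-fold higher and MAP2 9.22-fold lower. Tubulin genes have close copies, and TUBB6 overlaps AFG3L2.

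Of 32 apoptosis regulators 13 were higher and 14 lower. The survival gene BCL2L1 had 364, 362 and 348 CPM in PC3 and 179, 174 and 170.3 CPM in DU145, 2.05-fold higher. BCL2 was 8.58-fold higher but low in both (3.79 against 0.440 CPM), and the BH3-only gene BMF was 9.26-fold higher. Of 28 autophagy genes 14 were higher and 5 lower. WIPI1 was 8.69-fold higher and ATG7 3.25-fold, at 82.9, 88 and 87.2 CPM against 27.6, 23.2 and 28.6 CPM. WIPI1 overlaps ARSG and ATG7 overlaps VGLL4.

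Imprinted and noncoding genes included several that one line lacked. Of 18 imprinted genes 11 were higher and 6 lower. PEG3 had 5.0, 4.27 and 5.52 CPM in PC3 and no count in DU145, at least 330-fold higher. KCNQ1OT1, the noncoding RNA of the imprinted domain that also holds CDKN1C, had 30.2, 33.5 and 34.4 CPM in PC3 and 0.0578, 0 and 0.0923 CPM in DU145. PEG3 was thus detected in PC3 only, and KCNQ1OT1 was close to 0 in DU145. PLAGL1 was 17-fold and PEG10, which overlaps SGCE, 3.43-fold lower in PC3.

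Of 20 long noncoding RNAs of prostate and cancer biology 9 were higher and 7 lower. LINC00261, a neighbour of FOXA2, had 544, 524 and 557 CPM in PC3 and 0.881, 0.375 and 0.753 CPM in DU145, 804-fold higher. SCHLAP1, a prostate cancer transcript, had 1.69, 2.01 and 2.32 CPM in PC3 and no count in DU145, at least 134-fold higher. NEAT1, the scaffold of paraspeckles, was 2.22-fold higher. GAS5 had 24.6, 23.9 and 20.4 CPM in PC3 and 188, 182 and 198 CPM in DU145, 8.25-fold lower. SCHLAP1 overlaps FTH1P20 and GAS5 overlaps ZBTB37.

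Of 19 metallothioneins and S100 proteins 6 were higher and 8 lower. MT1E, a metal-binding protein, had 0.384, 0 and 0.172 CPM in PC3 and 137, 141 and 139.5 CPM in DU145, 730-fold lower. Its neighbour MT1F was 15.9-fold higher in PC3 (4.88 against 0.306 CPM). The genes are close copies, so reads may be assigned to the wrong member. S100P had 6.55, 7.58 and 6.32 CPM in PC3 and no count in DU145, at least 456-fold higher.

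**Figure D3:**
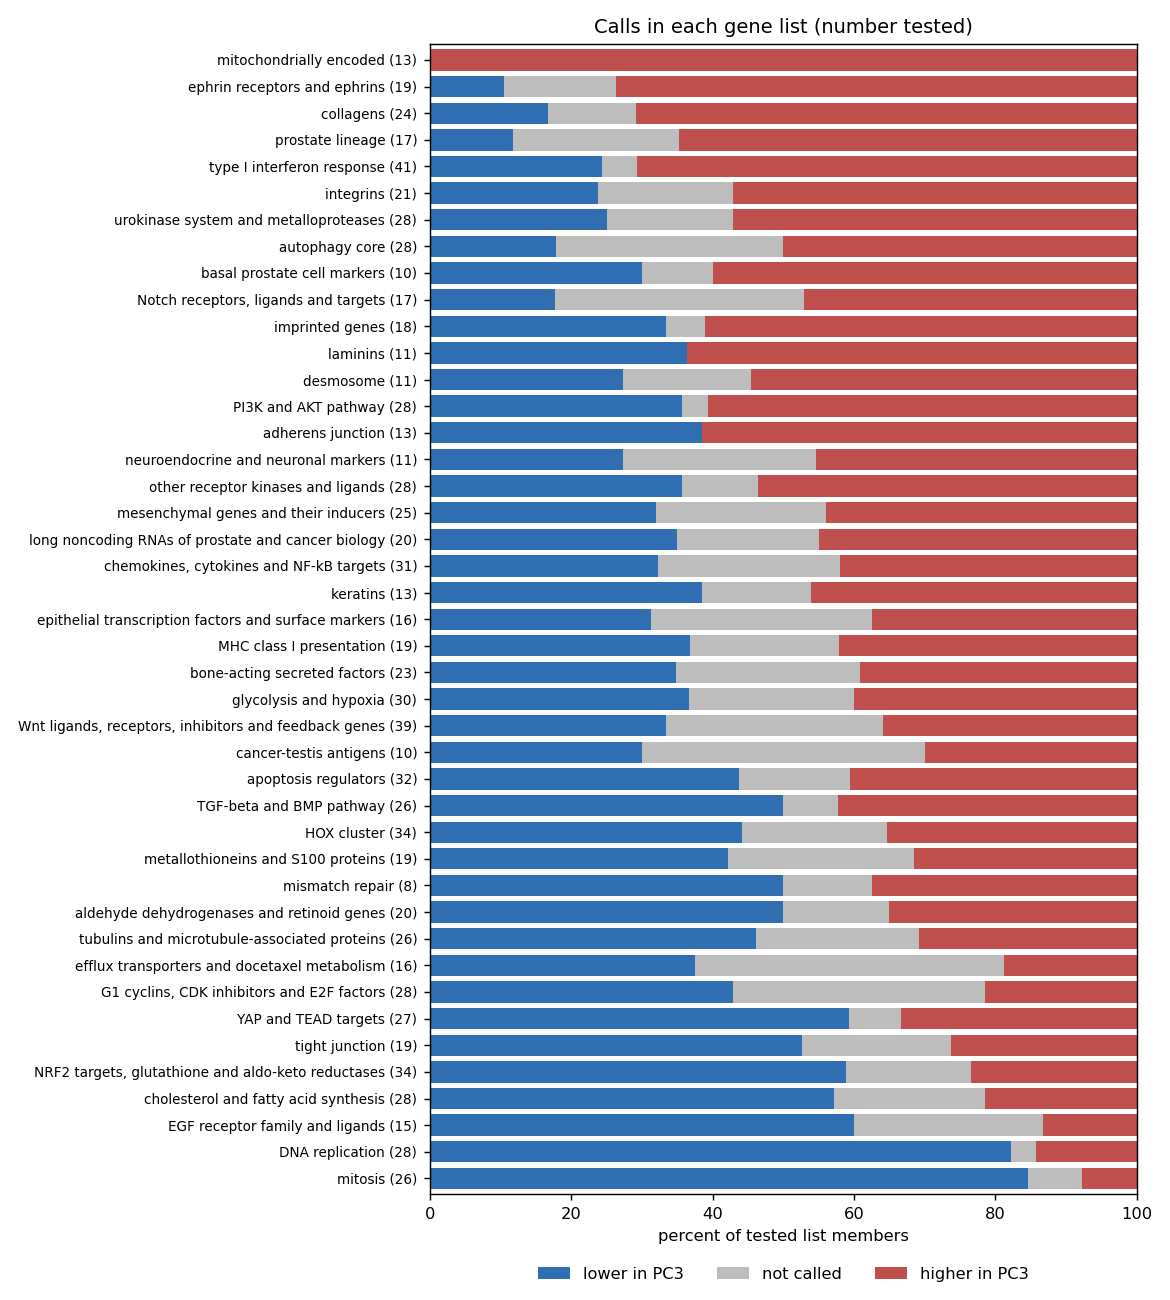
Share of the tested members of each gene list with at least 8 tested members called lower in parental PC3, not called or called higher (percent of tested members; number tested in brackets; the lists of other cell types, of histones, of genes recorded as altered and 1 further list are left out). Mitochondrially encoded genes, ephrins and collagens lie at the higher end, and DNA replication and mitosis at the lower end.

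The remaining lists showed smaller or mixed differences. Of 27 YAP and TEAD targets 9 were higher and 16 lower in PC3, with a median of -0.43. Of 26 genes of the TGF-beta and BMP pathway 11 were higher and 13 lower, and of 8 mismatch repair genes 3 and 4. Of 10 basal prostate cell markers 6 were higher and 3 lower, with a median of 0.49, and of 0.29 without the filter on low counts. Of 18 replication-dependent histones, whose transcripts lack a poly(A) tail, 5 were higher and 3 lower, with sums of 120 to 130 CPM in PC3 and 198 to 225 CPM in DU145. Of 10 cancer-testis antigens 3 were higher and 3 lower, with a median of -3.53 as fitted and -0.39 with members at 0 in a line set to their bound. As fitted it was 0.0 without the second DU145 library or with counts divided by 8, and -7.28 at a mean of at least 1 CPM.

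Together the 51 lists held 980 different tested genes, of which 778 were called. Their members were chosen for interest in these cells, and that share is not a background for any single list.

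Some genes were transcribed in one line and had no count at all in the other. With at least 1 CPM in all 3 libraries of a line and no count in the 3 of the other, 172 genes were on in PC3 only and 151 in DU145 only. Of the former 108 and of the latter 100 were protein coding. The highest bounds belonged to TCN1, a carrier of vitamin B12, at least 8360-fold higher, and to the pseudogene NBEAP1, at least 7690-fold higher, in PC3. In DU145 GLB1L2 led, at least 2530-fold lower in PC3. Next in PC3 came SIDT1, NOS1 and HS6ST2. Among the others on in PC3, PLA2G7, a phospholipase of platelet-activating factor that overlaps TDRD6, had 26.2, 25 and 31.6 CPM. The steroid dehydrogenase HSD17B2, which inactivates testosterone and estradiol, had 23.8, 23.2 and 21.4 CPM. The adhesion scaffold NEDD9 had 19.8, 21.5 and 15.4 CPM. They were at least 1850-fold, 1530-fold and 1270-fold higher in PC3.

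Among those on in DU145, CAVIN3, a caveolar protein like CAVIN1, had 22.8, 21.7 and 20.1 CPM and no count in PC3, at least 1410-fold lower. The neural factor ZIC1, which overlaps ZIC4, had 21.9, 19.2 and 20.9 CPM and the small heat shock protein HSPB8 18.4, 20.3 and 18 CPM. The kinase PRKCQ averaged 12.8 CPM and the phosphodiesterase PDE9A 13.3 CPM in DU145, with no count in PC3. Both cavins named here were therefore absent or near 0 in PC3, although they lie on different chromosomes. The bounds are set against a floor of 3 counts over the 3 libraries, 0.0149 CPM in DU145 and 0.0153 CPM in PC3. They assume independent counts, while the variance of low counts was 7.92 times the mean in PC3 and 7.72 times in DU145, so they may be too high by about that factor.

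RefSeq promoters matched 58 of 170 genes on in PC3 only, with a median of 9 CG pairs in 250 bases. They matched 54 of 150 genes on in DU145 only, with a median of 15.5. Over all 9690 promoters the median was 20. This is a description of the matched genes, with no test.

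Along the chromosomes, genes of at least 1 CPM were grouped into 613 windows of 25 neighbours. In 128 windows the median log2 difference was 0.5 or more and in 119 it was -0.5 or less. The highest median was 2.28, on chromosome 10 from 32267751 to 38452153, a window that holds FZD8 with ZNF248 (22.7-fold higher) and the semaphorin and VEGF co-receptor NRP1. NRP1 had 1543, 1536 and 1577 CPM in PC3 and 82.3, 76.5 and 74.9 CPM in DU145, 19.9-fold higher. The windows at 73497538 to 75032624 and 75099586 to 79826516 on the same chromosome followed, at 2.05 and 2.12. They hold the acetyltransferase KAT6B (361 against 38.9 CPM), ZSWIM8 (572 against 53.7 CPM), the heparan sulfate enzyme NDST2 (77 against 7.17 CPM) and the repressor ZNF503 (358 against 8.1 CPM). ZNF503 overlaps ZNF503-AS2, and ZSWIM8 and NDST2 overlap a further transcript.

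The lowest window lay on chromosome 8 from 52622458 to 61714596, with a median of -2.32 and 21 of its 25 genes lower. The kinase LYN had 4.57, 3.59 and 5.27 CPM in PC3 and 161, 148 and 157 CPM in DU145. CHCHD7 averaged 5.56 against 192 CPM and its neighbour PLAG1, a growth-promoting zinc finger factor, 4.72 against 96.2 CPM. A window on chromosome 10 from 5890203 to 12250589, which holds PRKCQ, stood at -1.88 with 24 of 25 genes lower. Chromosome 10 thus held the 3 highest windows and the third lowest.

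Whole chromosomes leaned as well. Of all 15580 genes of at least 1 CPM, 39.6% were called higher and 37.6% lower in PC3. On chromosome 20, 300 of 404 genes were higher and 42 lower in PC3, with a median of 0.82. On the X chromosome 346 of 518 were higher and 70 lower (median 0.70). On chromosome 9, 99 of 637 were higher and 432 lower, with a median of -0.82, and CDKN2A lies there. Copy number was not measured, and its part in these medians was not tested. LINC00261 and FOXA2, both higher in PC3, lie on chromosome 20.

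**Figure D4:**
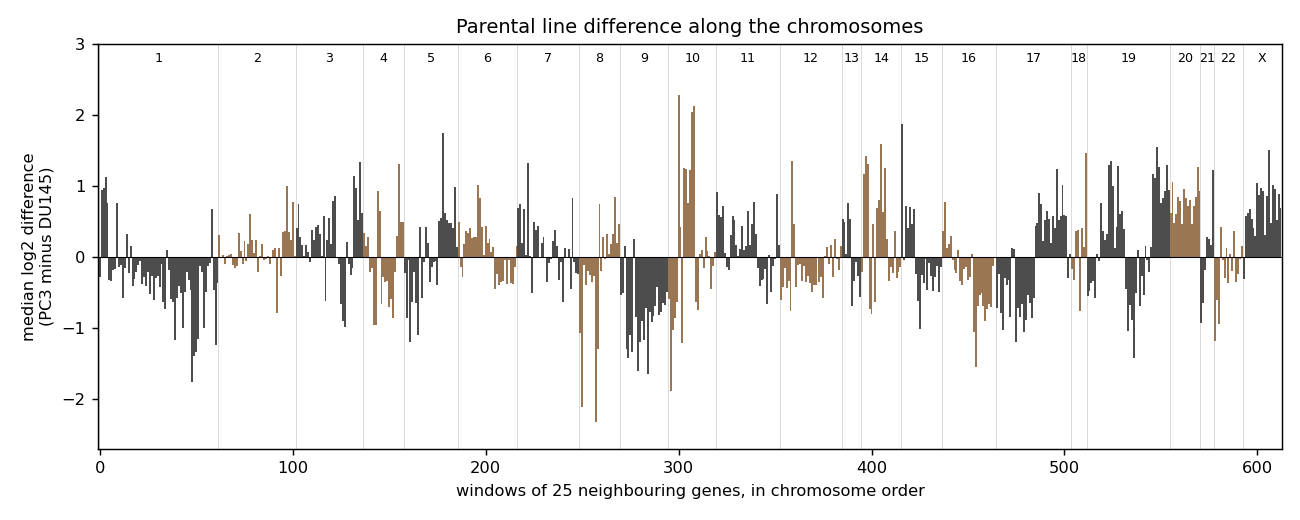
Median log2 difference, parental PC3 minus parental DU145, in 613 windows of 25 neighbouring genes in chromosome order, with chromosome names above. Chromosome 10 carries windows from -1.88 to 2.28, chromosome 9 lies mostly below 0 and chromosome 20 above 0.

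The same contrast was taken between the resistant sublines, whose libraries are not shared with the parental comparison, although each subline derives from its parent. There 59.8% of the genes tested were called. Of the 14561 genes called between the parental lines, 9333 were called in the same direction between the sublines, 1822 in the opposite direction and 3406 were not called. In 339 genes both differences were at least 2-fold and opposite.

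Of the genes in rows of neighbours near 0 in parental PC3, 4 are given here in the resistant sublines, and all 4 were low in PC3 again. STAT3 and CAVIN1 belong to the same row. STAT3 averaged 0.564 CPM in resistant PC3 and 309 CPM in resistant DU145, and CAVIN1 2.37 and 928 CPM. HEXA averaged 0.0997 and 77.6 CPM and SLFN11 0.445 and 94.6 CPM. Of the 172 genes on in parental PC3 only, 108 had no count in resistant DU145 either, and 2 reached 1 CPM there. Of the 151 on in parental DU145 only, 64 had no count in resistant PC3 and 6 reached 1 CPM.

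Other differences were not shared. CDH1 averaged 1.03 CPM in resistant PC3 and 74.3 CPM in resistant DU145, the reverse of the parental order, and DSP 2.01 and 191 CPM. RNF43 averaged 0.325 and 0 CPM, also reversed, and was close to 0 in both sublines. TGFA, 24.9-fold lower in parental PC3, averaged 66.9 and 66.1 CPM in the sublines. CDKN1A, level between the parents, averaged 11.8 CPM in resistant PC3 and 78.3 CPM in resistant DU145. HOXB13, FZD8 and KDR kept the parental order at 128, 461 and 40.8 CPM in resistant PC3 against 0.421, 1.19 and 0.197 CPM in resistant DU145.

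**Figure D5:**
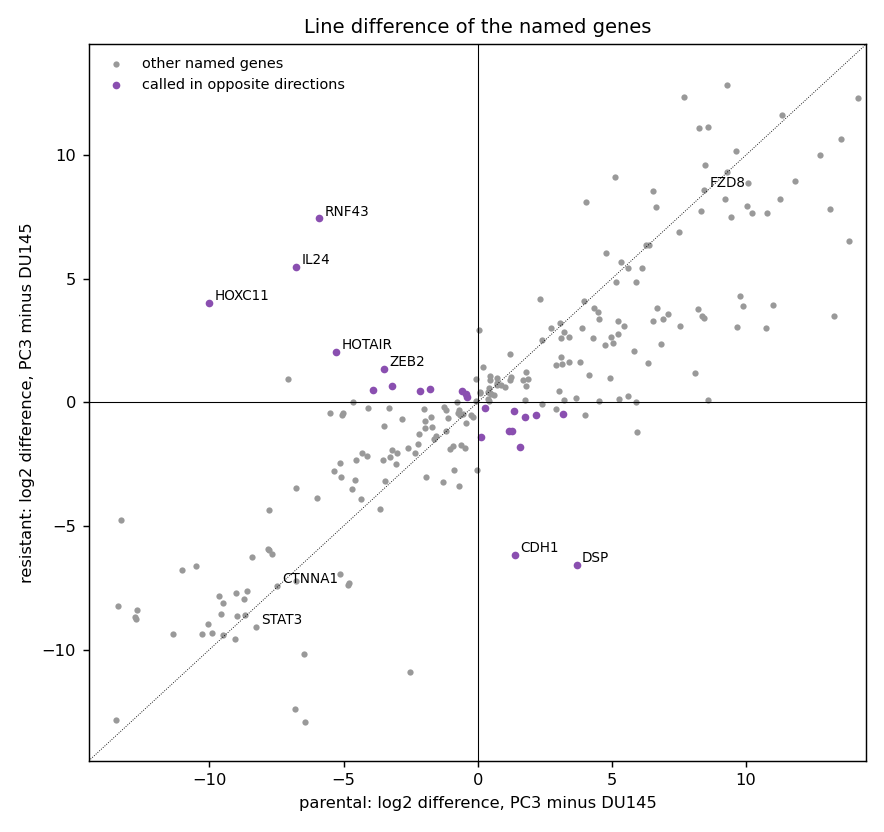
Log2 difference PC3 minus DU145 of the named genes between the parental lines (horizontal) and between the docetaxel-resistant sublines (vertical), 3 libraries per group; the dotted line marks equal differences. STAT3 and CTNNA1 lie near the line, while CDH1, DSP, RNF43, IL24, HOXC11, HOTAIR and ZEB2 are among the genes called in opposite directions.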

How the data were processed

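Poly(A) RNA selected with oligo(dT), with an RNA integrity number above 7, was sequenced in paired ends, with dUTP in the second strand, per the labels' protocols. The authors deposited a count and an FPKM value (scaled by gene length and library total) per gene and library for 38611 genes. Per the submitters' processing notes, the build was hg18 and the tools included HISAT2 2.0.4, StringTie 1.3.4d, cutadapt 1.9, edgeR and DESeq2. The coordinates in the deposited tables match GRCh38 instead, since 37377 of the 37385 genes also in GENCODE 29 overlap their GENCODE span and 23671 have the same start and end. For the counting program and its strand setting nothing was given in the sources used here, so genes that overlap another gene are uncertain. The deposited FPKM values equalled the count multiplied by a gene factor and a sample factor in 8949 genes compared, to within 4.78e-05%, and 71 genes had no FPKM.

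Counts were filtered with filterByExpr, scaled by TMM and tested with edgeR 4.0.16 (R 4.3.3), by quasi-likelihood with Benjamini-Hochberg adjustment over 24128 genes. All 12 libraries in 4 groups entered the fit, with 8 residual degrees of freedom. A gene was called at an adjusted p under 0.05. CPM values were computed from the deposited counts and the scaled totals. The parental libraries held 62513103 to 68170880 counts, and the median SD of log2 CPM between libraries of a group was 0.0872 in PC3 and 0.0856 in DU145. The floor of 3 counts and all bounds cover counting error only. The fit was tested on simulated data with known changes. Alternatives used limma 3.58.1 and DESeq2 1.42.0, other scalings and filters, and the leaving out of each parental library.

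The comparison, the gene lists and their members were chosen with earlier results of these data known. The genes described were taken from those given by a fixed rule, not all of which are described: the 15 highest and 15 lowest called genes, up to 4 members of each list in its more frequent direction and up to 2 in the other, all genes recorded as altered, the 10 most abundant genes of each line, and leading genes of extreme windows and of the genes on in 1 line. Genes outside it, among them those of the rows of neighbours and the members that were not called, were chosen after their values were seen. Promoter sequences come from RefSeq (GRCh38.p14). Y-linked genes and XIST, and some members of the lists, are not reported here, although list counts include all tested members.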

Additional observations from a re-analysis of the deposited data

Results flagged for a closer look

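For 23 of the named genes the difference between the lines was called in opposite directions in parental and in resistant cells. Over all genes, 1822 of the 14561 called between the parental lines were called in the opposite direction between the sublines. The difference of the differences (parental minus resistant, log2), here called the interaction, also passed edgeR's quasi-likelihood test with Benjamini-Hochberg adjustment. That test uses the same libraries, and the opposite calls nearly fix its outcome, so the pass adds no support. Each group holds 3 libraries, and the values below are the interaction. Among epithelial and lineage genes it was 7.57 for CDH1, 10.26 for DSP, -4.83 for ZEB2 and 2.35 for FOXA1. CDH1 averaged 9.94 CPM in parental PC3 and 3.81 CPM in parental DU145, against 1.03 and 74.3 CPM in the sublines. DSP averaged 10.8 and 0.835 CPM in the parents and 2.01 and 191 CPM in the sublines, so both contact genes were highest in resistant DU145. In the HOXC cluster it was -14.04 for HOXC11 and -7.31 for HOTAIR, which overlap each other. HOXC11 had no count in parental PC3, and RNF43, at -13.36, had none in resistant DU145, so these fitted values depend on the prior count and are no bound.

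For secreted and signalling genes the interaction was -4.41 for ADAMTS6, -1.07 for PLAUR, 3.67 for IRS1 and -12.25 for IL24, which was at 0.0780 CPM in parental PC3 and 0.148 CPM in resistant DU145. For the interferon gene IFIT1, which averaged 132 CPM in parental DU145 and 8.92 CPM in its subline, it was -2.61. For metabolic and drug-related genes it was 2.71 for GSTA4, 3.39 for ABCC3, 0.50 for TUBB, -3.86 for MAP2 and -0.59 for ENO1. ABCC3 averaged 352 and 117 CPM in the parents and 42.6 and 148 CPM in the sublines. For mitochondrial transcripts it was 1.70 for MT-CO1, 2.42 for MT-ND1 and 1.52 for MT-CYB. For the remaining genes it was -2.32 for PEG10, 2.30 for NEAT1 and -0.75 for AHNAK. What each subline gained or lost against its own parent was not separated here.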

How the results depend on the processing

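Against 14561 called genes, 14538 were called with DESeq2's size factors, 14575 with upper-quartile scaling, 14966 with DESeq2's Wald test, 14532 with the 6 parental libraries alone, 14164 without a filter and 15163 with counts divided by 8. A mean of at least 1 CPM gave 12242 of 15635 genes, and limma on log2(FPKM + 1) 10852 of 13504, with 3684 instead of 8667 at 2-fold or more. A test against a 2-fold difference, added after seeing the data, gave 6490 genes and 486 instead of 825 list members. Of all calls 51.12% were higher in PC3, 49.19% with upper-quartile scaling and 48.11% with limma. With the replicate block 14093 genes were called, 13988 of them shared. Same-numbered libraries did not deviate together (r of -0.02, -0.07 and 0.04 across 12202 genes), and r of differently numbered ones ran from -0.07 to 0.09. With so few libraries per line these values cannot show whether the numbers pair the samples. Leaving out each parental library in turn, and in 1 fit chosen after seeing the data the first resistant PC3 library, gave 13784 to 14560 calls, 8221 to 8667 at 2-fold, 808 to 824 list members, a higher share of 50.34% to 51.25% and 367 to 395 genes on in 1 line. That last count was 323, 97 at 5 CPM and 613 with up to 10 counts allowed. List medians changed sign for Wnt (0.37 with limma), leukocytes (1.46 with limma, 3.07 at 1 CPM), neurons and glia (-0.21 with limma, -1.72 at 1 CPM) and, without the third PC3 library, osteoblasts (-0.65 to 1.18 over the libraries left out) and neurons and glia (-0.29 to 0.74). Limma and the 1 CPM filter test fewer genes; the cause of the other changes was not tested. The difference between the sublines was not run under the alternatives. At these totals, a gene at 0 in a line allows up to 0.0149 CPM in DU145 and 0.0153 CPM in PC3, counting error only.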
